A study of Rattus norvegicus with 20 samples.

Results

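The 10 mitosis genes Top2a, Mki67, Nusap1, Cks2, Ccna2, Pbk, Racgap1, Ccnb1, Cdk1 and Birc5 were followed in the mesenteric arteries of ovariectomised rats. Their members were every probe whose single gene symbol in the platform's probe annotation was one of these names. That rule found 11 probes of 35129 on the array, 1 for each gene and 2 for Cdk1. The genes were chosen by their low signals under ethinyl estradiol and equilin in these same arrays. Those comparisons with vehicle therefore describe the members and are not tested.

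The study measured RNA on single-colour CodeLink rat arrays, 1 array for each of 20 rats. All rats were female Sprague Dawley animals, ovariectomised at 4 weeks of age, left for 2 weeks and then dosed daily by gavage for 3 weeks, so that they were 9 weeks old at the end. The vehicle group (4 rats) received 20% 2-hydroxypropyl-β-cyclodextrin. Ethinyl estradiol, estradiol benzoate and equilin were each given at 0.15 mg/kg to 3 rats. Tamoxifen was given at 3 mg/kg to 4 rats and raloxifene at 3 mg/kg to 3 rats. Every group, vehicle included, lacked ovaries from before puberty, and no intact rats entered the comparisons. Ethinyl estradiol is estradiol with an added ethinyl group, estradiol benzoate is an ester of estradiol, and equilin is an equine estrogen with an extra double bond in its ring system. Tamoxifen, a triphenylethylene, and raloxifene, a benzothiophene, are selective estrogen receptor modulators, which act as agonists in some tissues and antagonists in others.

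Mitosis separates the copied chromosomes into 2 daughter cells. Cyclin-dependent kinase 1, switched on by cyclins A and B, drives a cell into it, chromosomes are untangled and condensed, the spindle pulls them apart, and a contractile ring cuts the cell in 2. The genes for this machinery are transcribed late in the cell cycle and are almost silent in resting cells, so that their RNA is commonly read as a mark of dividing cells. Smooth muscle and endothelium of a grown artery divide rarely. In whole arteries, fewer dividing cells and less of these RNAs in each dividing cell cannot be told apart.

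Genes of this kind are known for promoters that carry CCAAT boxes, bound by the factor NF-Y, and a cell cycle homology region, whose core reads TTTGAA or TTCGAA and through which the DREAM and MuvB complexes act. RefSeq promoter windows of the rat assembly GRCr8, which run from 250 bases before to 50 bases after the annotated start, matched 7 of the 10 genes by gene ID: Top2a, Mki67, Nusap1, Cks2, Ccnb1, Cdk1 and Birc5. The 250 bases before the start are shown for 4 of the genes with both motifs, Top2a, Mki67, Cks2 and Cdk1, and for Ccnb1, which holds CCAAT boxes alone. Birc5, which also holds both before the start, and Nusap1, whose TTTGAA lies after it, are not shown. Capitals mark both motifs on either strand. A CCAAT box on the other strand appears in the printed line as ATTGG, and the core TTTGAA of the homology region on the other strand appears there in the form TTCAAA. The windows are chr10:84473094-84473343 (minus strand), chr1:199952594-199952843 (minus strand), chr17:13727520-13727769 (minus strand), chr20:19265043-19265292 (plus strand) and chr2:33655226-33655475 (minus strand), each written 5′ to 3′ along its gene.
Top2a: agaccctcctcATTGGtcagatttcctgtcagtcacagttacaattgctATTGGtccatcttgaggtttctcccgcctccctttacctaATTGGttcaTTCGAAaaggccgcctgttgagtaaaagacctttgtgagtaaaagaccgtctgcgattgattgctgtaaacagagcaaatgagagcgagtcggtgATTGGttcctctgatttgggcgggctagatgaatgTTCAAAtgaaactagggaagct
Mki67: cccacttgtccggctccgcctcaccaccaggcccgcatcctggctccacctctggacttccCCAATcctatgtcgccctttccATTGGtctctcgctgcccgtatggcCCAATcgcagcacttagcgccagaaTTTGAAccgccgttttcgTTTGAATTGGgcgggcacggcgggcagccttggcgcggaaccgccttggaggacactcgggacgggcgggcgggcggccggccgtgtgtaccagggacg
Cks2: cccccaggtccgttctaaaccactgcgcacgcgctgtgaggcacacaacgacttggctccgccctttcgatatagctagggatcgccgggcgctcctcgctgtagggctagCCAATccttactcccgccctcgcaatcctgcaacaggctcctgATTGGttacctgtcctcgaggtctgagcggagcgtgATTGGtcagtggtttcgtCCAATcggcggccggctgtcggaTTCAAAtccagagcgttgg
Cdk1: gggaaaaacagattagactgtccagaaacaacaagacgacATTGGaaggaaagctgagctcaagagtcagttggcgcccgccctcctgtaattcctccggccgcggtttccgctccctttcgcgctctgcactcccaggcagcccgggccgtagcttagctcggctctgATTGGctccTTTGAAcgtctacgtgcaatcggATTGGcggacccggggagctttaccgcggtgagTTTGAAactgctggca
Ccnb1: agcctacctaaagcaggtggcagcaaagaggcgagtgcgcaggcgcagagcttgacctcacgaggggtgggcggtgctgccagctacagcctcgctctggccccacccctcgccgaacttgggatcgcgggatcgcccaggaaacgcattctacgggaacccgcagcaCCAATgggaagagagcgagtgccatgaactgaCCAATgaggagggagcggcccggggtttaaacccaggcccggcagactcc

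CCAAT was present on either strand in 7 of the 7 member windows of 300 bases, in 71.6% of the 67 windows of other mitosis genes and in 37.7% of 27457 windows of all genes. TTTGAA or TTCGAA was present in 6 of the 7, against 74.6% and 19.5%. The exception among the members was Ccnb1. At least 2 CCAAT boxes were present in 6 of the 7 member windows, all but that of Birc5, and in 11.5% of all windows. Top2a, Mki67 and Cks2 held 4 each, and their most closely spaced pairs began 38, 22 and 18 bases apart. In the Mki67 window 1 TTTGAA overlapped the CCAAT box that followed it. The E2F-type letters TTTCCCGC and TTTGGCGC were present in 0 of the 7 windows (1.03% and 0.521% of all windows), and the full palindromic estrogen response element, with its spacer of 3 bases, also in 0 (0.0255% of all). These matches describe the letters in the windows and nothing beyond them.

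Levels are given as log2 of intensity plus an offset of 0.103, minus the array's median, so that 0 is the median probe of an array. A difference of 1 is a doubling, and the offset makes changes of dim probes look smaller than they are. The 11 member probes were modest in brightness, between percentile 31.8 (Nusap1) and percentile 52.6 (Top2a) of all probes by mean intensity. All 11 passed the filter on mean intensity that left 24562 probes for testing. Nusap1 passed it only through the vehicle arrays: its mean intensity was 0.378 over all arrays, 0.680 in vehicle arrays and 0.303 in treated arrays, against a limit of 0.338. Such a probe had to be higher in vehicle rats, so its differences from vehicle are given as values and not counted in support. The other 10 probes were above the limit in the treated arrays too. Of the tissue markers, Myh11 and Tagln of smooth muscle had median intensities of 316 and 212 and Pecam1 of endothelium had 56.4, while the probe for smooth muscle Acta2 was dim at 0.847. The enterocyte markers Vil1, Krt20 and Fabp2 were near background, with medians of 0.156, 0.101 and 0.103. Epcam, of the same list, had a median of 0.317. Cdx2 went the other way, with a median of 3.35 (range 2 to 5.47), and was the one marker of that list that passed the filter.

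The arrays fell into 2 sets that no label names and that the deposited array medians separate, from 1.041 to 1.061 in 10 arrays and from 1.001 to 1.015 in the other 10. The set with the higher medians held all 9 estrogen arrays and vehicle array 1, and the other held vehicle arrays 2 to 4 and all tamoxifen and raloxifene arrays. Each estrogen therefore has 1 vehicle array of its own set, and values with the array set as a block rest on that array and assume that it varies like the others. Raloxifene array 3 stood apart: its correlations with the other 19 arrays averaged 0.841, and the same average was 0.918 to 0.959 for each of those.

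Across the 11 probes, the mean log2 level was highest in vehicle rats, at 0.31 ± 0.15 (SD, n = 4). It was -0.84 ± 0.20 under ethinyl estradiol, -0.73 ± 0.21 under tamoxifen (n = 4), -0.66 ± 0.09 under equilin, -0.25 ± 0.14 under estradiol benzoate and -0.25 ± 0.19 under raloxifene (n = 3 where not given). The lowest vehicle array had a mean of 0.09 and the highest treated array, an estradiol benzoate array, a mean of -0.09, so vehicle and treated arrays did not overlap in this summary. The ethinyl estradiol range of -1.07 to -0.68, the tamoxifen range of -0.90 to -0.45 and the equilin range of -0.72 to -0.56 overlapped. So did the estradiol benzoate range of -0.36 to -0.09 and the raloxifene range of -0.45 to -0.10. Vehicle was the highest group for 9 of the 11 probes, and raloxifene for Ccnb1 and Cdk1 probe 1. Low ethinyl estradiol and equilin values chose the genes, and Nusap1 passed the filter only through its vehicle arrays. The separation from vehicle and this order were therefore partly set in advance and are a description.

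**Figure D1:**
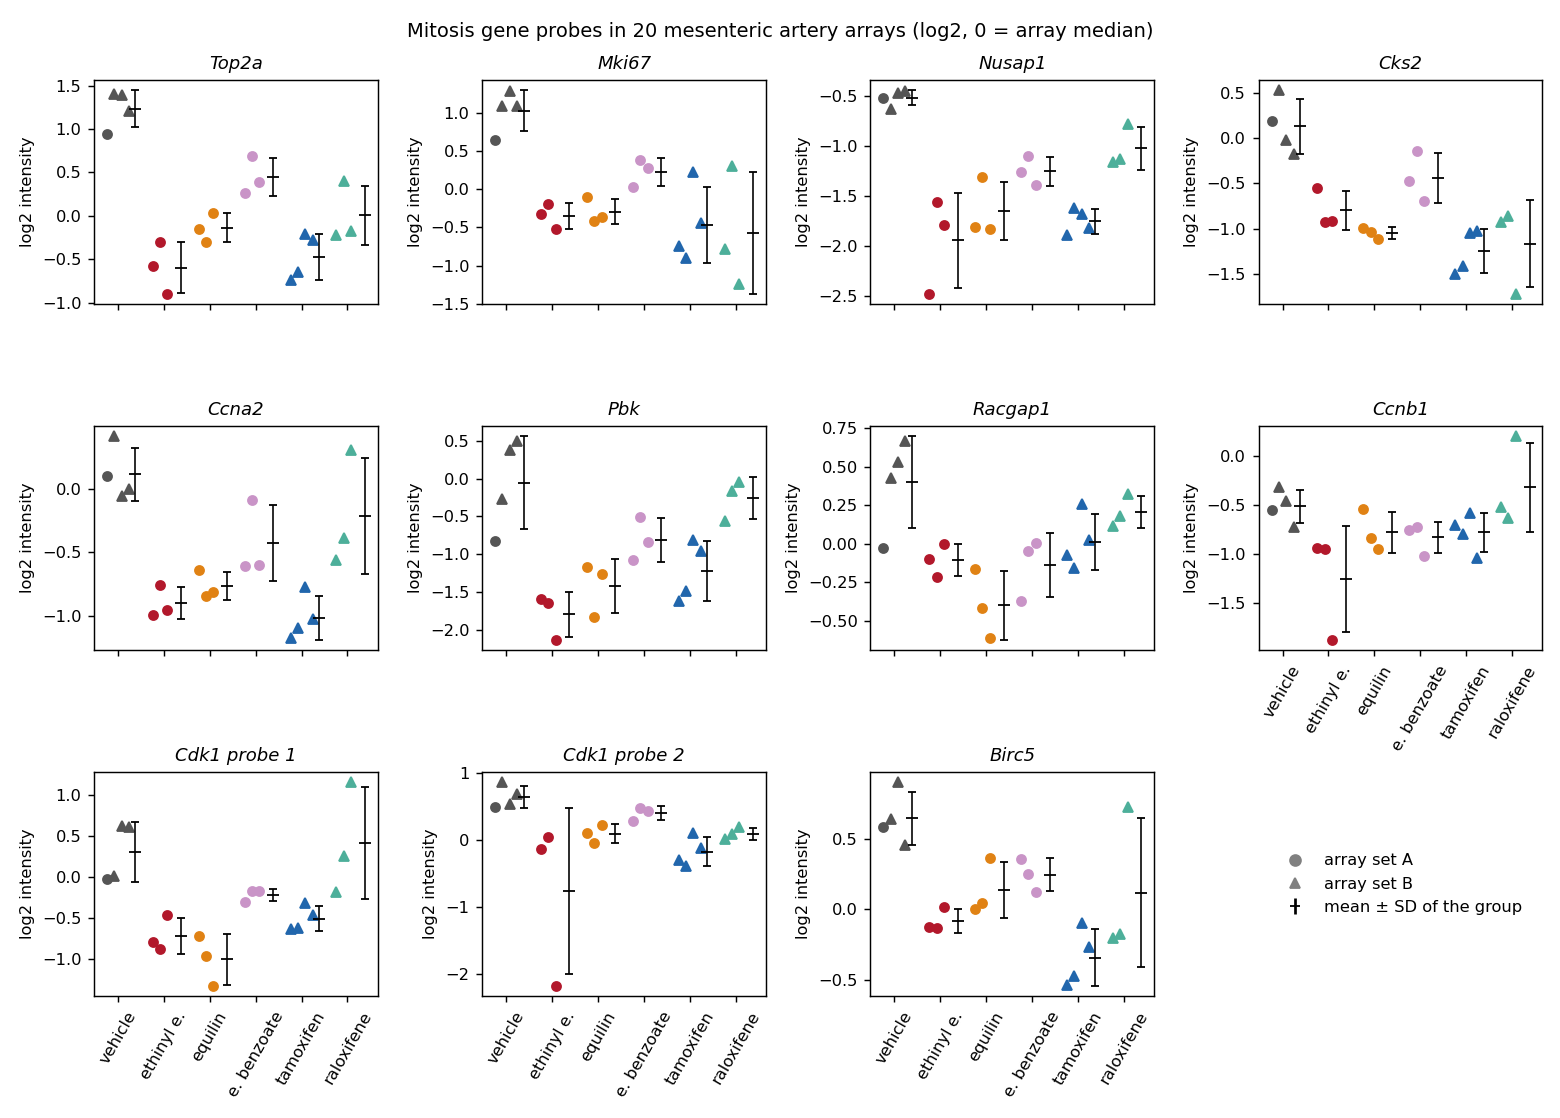
Log2 level of each of the 11 mitosis gene probes (vertical axis, 0 is the array median) in the 20 arrays, by treatment group, with circles for the array set that holds vehicle array 1 and triangles for the other set. Bars give the group mean ± SD, and the vehicle group is the highest in 9 of the 11 panels. Low ethinyl estradiol and equilin values chose the genes.

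The cyclins and kinases come first in the order of events. Ccna2 encodes cyclin A2, which acts from DNA replication until early mitosis. Its vehicle arrays read 0.10, 0.41, -0.06 and -0.0045 (log2 levels, arrays 1 to 4). The tamoxifen arrays read -1.17, -1.10, -0.77 and -1.03 and the ethinyl estradiol arrays -0.99, -0.76 and -0.95, all below every vehicle array. The equilin arrays read -0.64, -0.84 and -0.81, the estradiol benzoate arrays -0.61, -0.09 and -0.60, and the raloxifene arrays -0.56, -0.39 and 0.31. Raloxifene was the one treatment whose range ran into that of vehicle, through array 3.

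Cdk1 encodes the kinase that starts mitosis and had 2 probes for 1 transcript accession. Probe 1 read between -0.03 and 0.62 in vehicle arrays, between -0.64 and -0.32 under tamoxifen, between -0.88 and -0.47 under ethinyl estradiol and between -1.34 and -0.72 under equilin. It read -0.31, -0.18 and -0.18 under estradiol benzoate and -0.18, 0.25 and 1.16 under raloxifene, the last being array 3. Probe 2 gave a different picture of raloxifene, with 0.0029, 0.08 and 0.18 against 0.49 to 0.86 in vehicle arrays. Its ethinyl estradiol arrays read -0.15, 0.04 and -2.19, and the change from vehicle of -1.40 became -0.69 without the third of these. The probes disagreed in the order of the estrogens too: equilin had the lowest group mean at probe 1 and ethinyl estradiol, through that array, at probe 2.

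Cks2, a small protein that docks on the cyclin-dependent kinases, read 0.18, 0.53, -0.02 and -0.18 in vehicle arrays. All 16 treated arrays but 1 lay below them, the exception being estradiol benzoate array 2 at -0.14. The tamoxifen arrays read -1.50, -1.41, -1.05 and -1.03, the raloxifene arrays -0.92, -0.86 and -1.72, and the equilin arrays -0.99, -1.04 and -1.11. Pbk, a protein kinase active in mitosis, varied widely among the vehicle arrays, at -0.83, -0.27, 0.38 and 0.50. Its tamoxifen arrays, from -1.62 to -0.81, just reached the lowest vehicle array, its ethinyl estradiol arrays lay from -2.14 to -1.60, and its raloxifene arrays, from -0.56 to -0.04, lay within the vehicle range. Ccnb1, encoding cyclin B1, was the least changed of the cyclins, with a vehicle mean of -0.52 ± 0.17, a tamoxifen mean of -0.78 ± 0.20 and overlapping ranges under equilin, estradiol benzoate, tamoxifen and raloxifene.

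Top2a, Mki67 and Birc5 act on the chromosomes. Top2a encodes topoisomerase II alpha, which untangles sister DNA. Its vehicle arrays read 0.94, 1.40, 1.39 and 1.21. The tamoxifen arrays read -0.74, -0.65, -0.21 and -0.28, the raloxifene arrays -0.22, 0.40 and -0.17, the ethinyl estradiol arrays -0.58, -0.31 and -0.90, the equilin arrays -0.15, -0.30 and 0.04, and the estradiol benzoate arrays 0.26, 0.69 and 0.39. Every treated array lay below every vehicle array, and the estradiol benzoate arrays, with raloxifene array 2, were the closest to vehicle.

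Mki67 encodes Ki-67, which coats mitotic chromosomes and is the usual stain for cycling cells. It read 0.65, 1.09, 1.28 and 1.09 in vehicle arrays, and every treated array lay below these. The tamoxifen arrays were spread, at -0.75, -0.90, 0.23 and -0.44, and so were the raloxifene arrays, at -0.79, 0.31 and -1.24. The estrogen arrays were tighter, from -0.53 to -0.19 under ethinyl estradiol, from -0.41 to -0.11 under equilin and from 0.03 to 0.39 under estradiol benzoate. Birc5 encodes survivin, a subunit of the chromosomal passenger complex, and read 0.58, 0.64, 0.90 and 0.45 in vehicle arrays. Tamoxifen gave its lowest levels, -0.54, -0.47, -0.10 and -0.27, and raloxifene gave -0.20, -0.17 and, in array 3, 0.73.

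Nusap1 and Racgap1 serve the spindle and the division of the cell. Nusap1 encodes a protein that bundles spindle microtubules, and its vehicle arrays were close together at -0.52, -0.63, -0.47 and -0.45. Every treated array lay below them: the tamoxifen arrays read -1.89, -1.62, -1.67 and -1.82, the raloxifene arrays -1.16, -1.13 and -0.78, the estradiol benzoate arrays -1.26, -1.10 and -1.39, the ethinyl estradiol arrays -2.48, -1.56 and -1.78, and the equilin arrays -1.81, -1.31 and -1.83. Racgap1, a subunit of the centralspindlin complex that places the contractile ring, had a narrower span, with group means from -0.40 ± 0.23 under equilin to 0.40 ± 0.30 in vehicle rats. Its vehicle array 1, at -0.02, lay well below the other vehicle arrays, at 0.43 to 0.66.

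The comparison of each compound with vehicle shares the same 4 vehicle arrays, and vehicle array 1 was the lowest vehicle array for 6 of the 11 probes (Top2a, Mki67, Pbk, Racgap1 and both of Cdk1). Under ethinyl estradiol, 11 of 11 probes were below the vehicle mean, with a median log2 change of -1.02 and a range of -1.83 ± 0.20 (SE; Top2a) to -0.50 ± 0.17 (Racgap1). For 10 of the 11 every treated array lay below every vehicle array, which held for 7.68% of all probes tested. Under equilin 11 of 11 were lower, with a median of -1.13 and a range of -1.37 ± 0.20 (Top2a) to -0.26 ± 0.24 (Ccnb1), and 10 did not overlap with vehicle (22.5% of all probes tested). These values chose the genes. When the array set was made a block, so that vehicle array 1 was the control, the median was -0.98 under ethinyl estradiol and -0.86 under equilin. Pbk moved most, from -1.74 to -0.96 under ethinyl estradiol and from -1.37 to -0.59 under equilin, and Racgap1 moved from -0.50 to -0.08 under ethinyl estradiol. The median change of all probes tested was -0.05 under ethinyl estradiol and -0.17 under equilin.

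**Figure D2:**
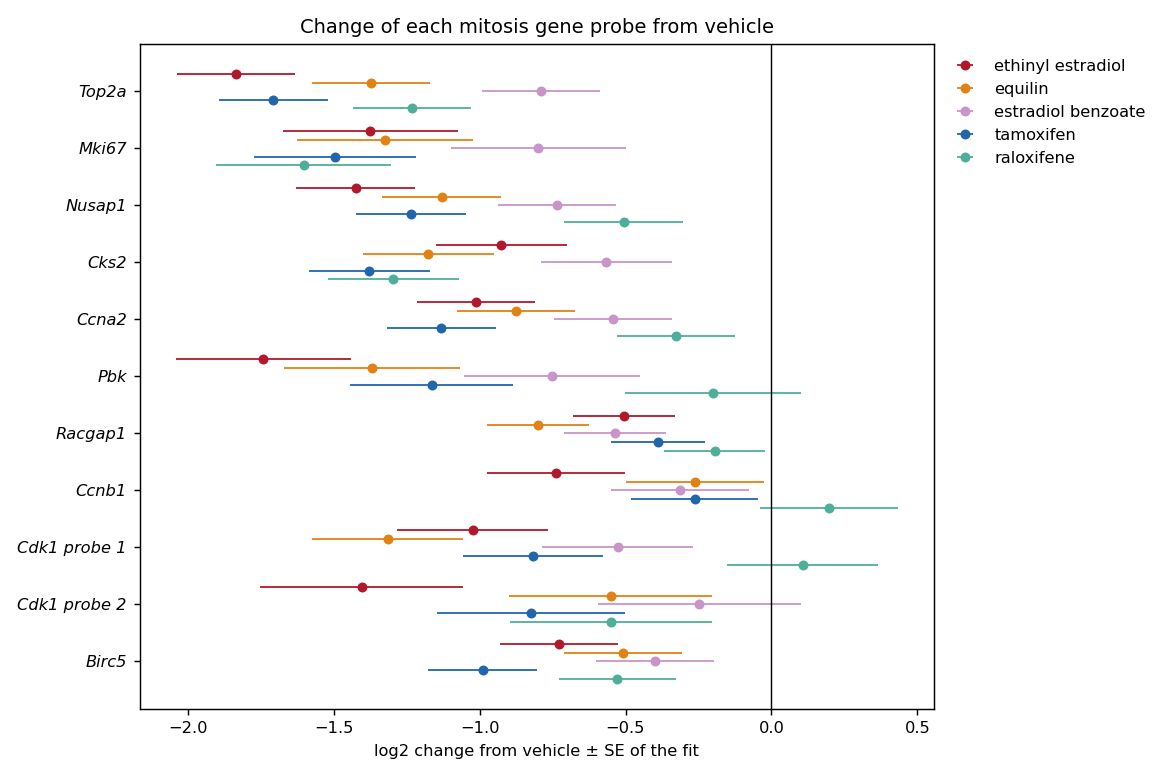
Log2 change from vehicle of each mitosis gene probe (horizontal axis) under each compound, with the SE of the fit over 20 arrays as bars. The ethinyl estradiol and equilin values chose the genes, and Top2a had changes of -1.83 under ethinyl estradiol, -1.71 under tamoxifen and -0.79 under estradiol benzoate.

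Tamoxifen was not among the compounds that the genes were proposed on, although it shares their vehicle arrays. High values in those arrays favoured low changes from vehicle in advance. The shares of all probes, which were not chosen so, are therefore no like background for the members. Under it 5 of the 10 probes other than Nusap1 fell past the test, Top2a, Cks2, Ccna2, Mki67 and Birc5, while 0.191% of all probes tested were called lower. Top2a fell by 1.71 ± 0.19 on the log2 scale, a level 3.26-fold lower (limma, Benjamini-Hochberg adjusted p = 0.000317), and was called under all 33 settings tried, leaving out each array included. Cks2 fell by 1.38 ± 0.21 (adjusted p = 0.00541, limma) and was called under the 32 settings in which it was tested. Nusap1 had a change of -1.23 ± 0.19 and was past the threshold as well, which makes 6 of 11 with it, but it entered the test through its vehicle arrays alone. Ccna2 fell by 1.13 ± 0.19 (adjusted p = 0.0129), Mki67 by 1.50 ± 0.28 (adjusted p = 0.0266) and Birc5 by 0.99 ± 0.19 (adjusted p = 0.0279), all in limma.

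Of the 5 probes that did not pass under tamoxifen, Pbk had a change of -1.16 ± 0.28 (adjusted p = 0.123, limma), Cdk1 probe 1 of -0.82 ± 0.24 (0.271), Cdk1 probe 2 of -0.82 ± 0.32 (0.46), Racgap1 of -0.39 ± 0.16 (0.502) and Ccnb1 of -0.26 ± 0.22 (0.771). The median change of the 11 was -1.13, against -0.03 for all probes tested. For 8 of the 11, Nusap1 included, every tamoxifen array lay below every vehicle array (4.52% of all probes tested), the exceptions being Pbk, Racgap1 and Ccnb1. A block for the array set again gave 6 with Nusap1 (0.0733% of all probes lower): Pbk entered at -1.42 (adjusted p = 0.0431, limma) and Birc5 left (adjusted p = 0.0843). The count of 6 fell to 3 without vehicle array 2, without tamoxifen array 1 or without tamoxifen array 2. Over the settings other than leaving out arrays, the adjusted p of Mki67 ran from 0.00177 to 0.0732 and that of Birc5 from 0.000452 to 0.0847 (limma).

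Under raloxifene Mki67 fell by 1.60 ± 0.30 (adjusted p = 0.0272, limma), Cks2 by 1.30 ± 0.23 (adjusted p = 0.021) and Top2a by 1.23 ± 0.20 (adjusted p = 0.0205), 3 of 11 probes, Nusap1 included, where 1.33% of all were called lower. Raloxifene also shares the vehicle arrays that helped to choose the genes, so that share is no like background for the members. Nusap1, at -0.51 ± 0.20, Birc5, at -0.53 ± 0.20, and Ccna2, at -0.33 ± 0.20, did not pass, nor did Cdk1 probe 1 at 0.11 ± 0.26 and Ccnb1 at 0.20 ± 0.24. The median was -0.51, against -0.02 for all probes, and 5 of the 11 did not overlap with vehicle (10.9% of all probes tested): Top2a, Mki67, Nusap1, Cks2 and Cdk1 probe 2.

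The 3 calls under raloxifene rested on single arrays. Without raloxifene array 3, which stands apart, 0 of 11 passed (0.0529% of all probes lower), with changes of -1.27 for Mki67 (adjusted p = 0.107, limma), -1.02 for Cks2 (0.0745) and -1.14 for Top2a (0.0607). Of the genes that had not passed, Birc5 went to -0.83 (adjusted p = 0.0607, limma), Ccna2 to -0.59 (0.195), Nusap1 to -0.63 (0.253), Cdk1 probe 1 to -0.27 (0.658) and Ccnb1 to -0.06 (0.943). The median without it was -0.60. The count was also 0 without vehicle array 2, and 1 without vehicle array 1 or vehicle array 3. Top2a alone passed, at -1.33, when the array set was a block (adjusted p = 0.0335, limma; 0.0611% of all probes lower), which left 1 of 11. Array 3 was the highest raloxifene array for 8 of the 11 probes and the lowest for Mki67 and Cks2.

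Estradiol benzoate had the smallest median change of the 3 estrogens. The genes were chosen by low ethinyl estradiol and equilin values, which favoured this order in advance. The shared vehicle arrays favoured low changes from vehicle here too. All 11 probes were below vehicle, from -0.80 ± 0.30 (Mki67) to -0.25 ± 0.35 (Cdk1 probe 2), with a median of -0.54 against -0.12 for all probes tested. In limma 0 of 11 passed, where 0.0651% of all probes were called lower, and 7 had an unadjusted p under 0.05, as did 4.71% of all probes in that direction. The lowest adjusted p was that of Top2a, at -0.79 ± 0.20 (adjusted p = 0.0924, limma). The estradiol benzoate arrays lay wholly below vehicle for 7 of the 11, Nusap1 included (10.2% of all probes tested). Under a block for the array set the median was -0.34, 10 of 11 were lower and Pbk was at 0.02. Without vehicle array 1, which that block rests on, Top2a and Racgap1 passed (adjusted p = 0.0409 and 0.0451, limma). That setting leaves no vehicle array in the set of the estradiol benzoate arrays, so treatment and array set cannot be told apart in it. With the block Top2a was at -0.50 and Racgap1 at -0.11. The share of all probes called without vehicle array 1 was not computed.

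**Figure D3:**
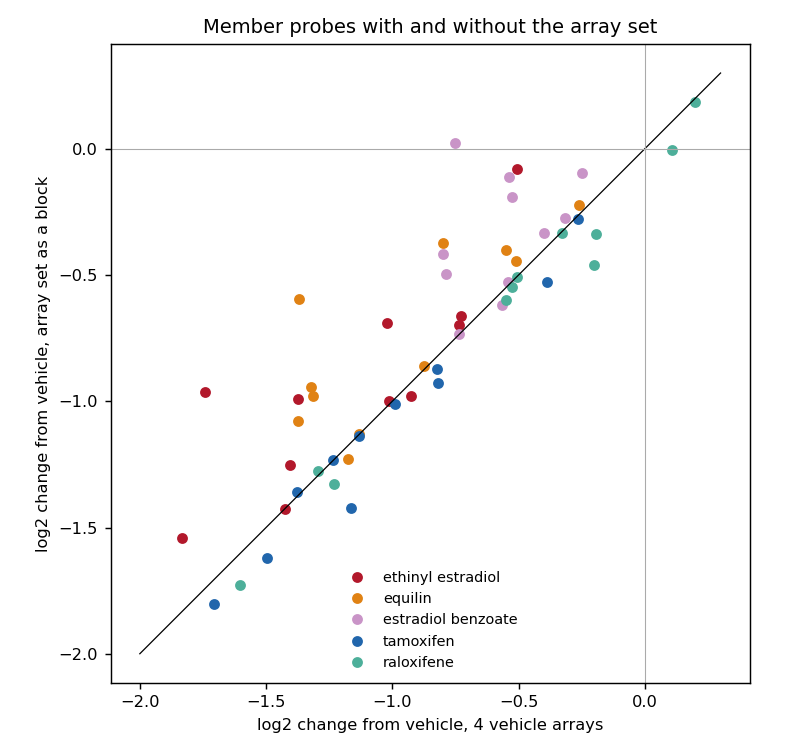
Log2 change from vehicle of the 11 member probes with all 4 vehicle arrays as control (horizontal axis) and with the array set as a block (vertical axis), coloured by compound. The diagonal marks equal values; the tamoxifen median was -1.13 on one axis and -1.14 on the other, while the estradiol benzoate median was -0.54 and -0.34.

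Compounds given at the same dose were then compared with each other in 4 pairs. The genes were chosen by low ethinyl estradiol and equilin values, which lie on a side of the first 3 pairs, so these are a description with no test, and nothing is read from their counts. Between ethinyl estradiol and estradiol benzoate, which share the estradiol core and differ in the added group, 10 of 11 probes were lower under ethinyl estradiol, with a median difference of -0.50. For 8 the arrays did not overlap (7.25% of all probes tested). Top2a differed by -1.04 (95% interval -1.50 to -0.59).

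Between equilin and estradiol benzoate 10 of 11 probes were lower under equilin, with a median difference of -0.40, and 7 did not overlap (13.3% of all probes tested). The largest differences were those of Cdk1 probe 1, -0.79 (95% interval -1.37 to -0.21), Pbk, -0.62 (-1.29 to 0.06), and Cks2, -0.61 (-1.12 to -0.10).

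Between ethinyl estradiol and equilin, 8 of the 11 probes were lower under ethinyl estradiol and 3 higher, with a median difference of -0.22. Top2a was the 1 probe with all ethinyl estradiol arrays lower (4.86% of all probes tested) and Cks2 the 1 with all higher (17.1%). The 95% intervals ran from -0.91 to -0.0063 for Top2a, from -0.72 to 0.62 for Mki67 and from -1.63 to -0.07 for Cdk1 probe 2, the widest.

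Tamoxifen and raloxifene differed in structural class and were both given at 3 mg/kg. Of the 11 probes, 10 were lower under tamoxifen, with a median difference of -0.46, and 4 did not overlap (3.56% of all probes tested): Nusap1, Ccna2, Pbk and Cdk1 probe 1. Pbk differed by -0.96 (95% interval -1.60 to -0.33), Cdk1 probe 1 by -0.92 (-1.47 to -0.38), Ccna2 by -0.80 (-1.23 to -0.38) and Nusap1 by -0.73 (-1.16 to -0.30). Mki67, with 0.11 (-0.52 to 0.74), and Cks2, with -0.08 (-0.55 to 0.39), had intervals on both sides of 0. In limma 0 of 11 passed, as did 0 of all probes lower under tamoxifen, with 6 of 11 at an unadjusted p under 0.05 (4.55% of all probes in that direction). The lowest p adjusted over the 4 pairs together was 0.215, for Ccna2 (limma). Without raloxifene array 3 the differences were -0.86 for Pbk, -0.55 for Cdk1 probe 1, -0.54 for Ccna2 and -0.60 for Nusap1, and 0 of 11 passed.

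**Figure D4:**
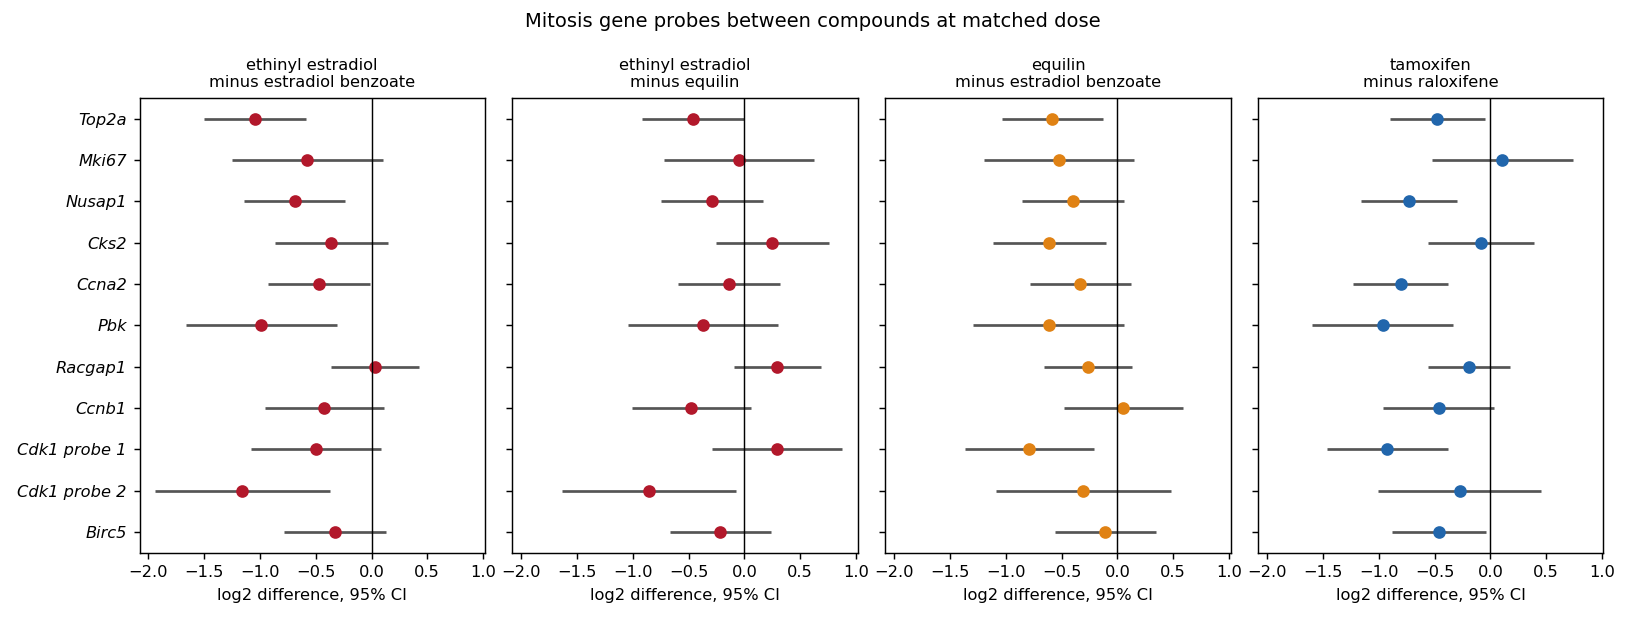
Log2 difference between compounds given at the same dose for each mitosis gene probe (horizontal axis), with 95% intervals of the fit over 20 arrays. Ethinyl estradiol and equilin values chose the genes. The Top2a difference between ethinyl estradiol and estradiol benzoate was -1.04, and the tamoxifen minus raloxifene differences ran from -0.96 (Pbk) to 0.11 (Mki67).

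A wider list of 77 mitosis genes, of which 59 had a probe and 51 were tested, had smaller median changes than the 10, which were chosen for theirs. Its median change was -0.29 under ethinyl estradiol, -0.29 under equilin, -0.17 under estradiol benzoate, -0.21 under tamoxifen and -0.10 under raloxifene. Of the 51, 36 were lower under ethinyl estradiol (70.6%, against 56.4% of all probes tested), 32 under equilin (62.7% against 65.9%), 35 under estradiol benzoate (68.6% against 66.7%), 39 under tamoxifen (76.5% against 54.1%) and 33 under raloxifene (64.7% against 51.9%). At an unadjusted p under 0.05 in limma there were 16, 18, 9, 15 and 9 lower in that order, where 8.66%, 15.4%, 4.71%, 4.87% and 15.8% of all probes tested were. In the other direction 4, 5, 1, 0 and 5 of the 51 were higher at that threshold. The shares of all probes higher were not computed, so these counts are values alone. Under tamoxifen 4 passed as lower (0.191% of all probes tested): Cenpw, a kinetochore protein, fell by 1.28 ± 0.16 (adjusted p = 0.000951, limma), Ube2c, the ubiquitin-conjugating enzyme of the anaphase-promoting complex, by 1.21 ± 0.22 (0.0249), Kif20a, a kinesin of cytokinesis, by 1.16 ± 0.20 (0.0188) and Cenpm, another kinetochore protein, by 0.75 ± 0.14 (0.0274). Under a block for the array set Cenpw (adjusted p = 0.00338, limma) and Kif20a (0.0224) passed. Under raloxifene Cenpw, at -0.82 ± 0.17, and Cenpt, at -1.22 ± 0.30, passed (adjusted p = 0.0368 and 0.0458, limma; 1.33% of all probes lower), and with the block 0 did. Without raloxifene array 3, 0 passed as well, with Cenpw at -0.79 (adjusted p = 0.123, limma) and Cenpt, whose 3 raloxifene arrays ran from -1.56 to -0.01, at -0.73 (0.201). Under estradiol benzoate 0 of 51 passed as lower in limma (0.0651% of all probes) and 1 was higher at an unadjusted p under 0.05.

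Under ethinyl estradiol 5 of the 51 passed as lower (0.655% of all probes tested), among them Cenpt at -1.52 ± 0.30, Kif20a at -1.07 ± 0.22, Aspm at -0.997 ± 0.198 and Cenpw at -0.84 ± 0.17. Under equilin 7 passed as lower (1.96%), among them Aspm at -1.43 ± 0.20 and Spag5 at -0.83 ± 0.19, and Mad2l1, a spindle checkpoint protein, passed as higher at 0.74 ± 0.20 (adjusted p = 0.043, limma; 0.355 with the array set as a block). The share of all probes called higher was not computed. A block for the array set left 0 of 51 lower under either estrogen, where 0.057% and 0.0366% of all probes did.

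**Figure D5:**
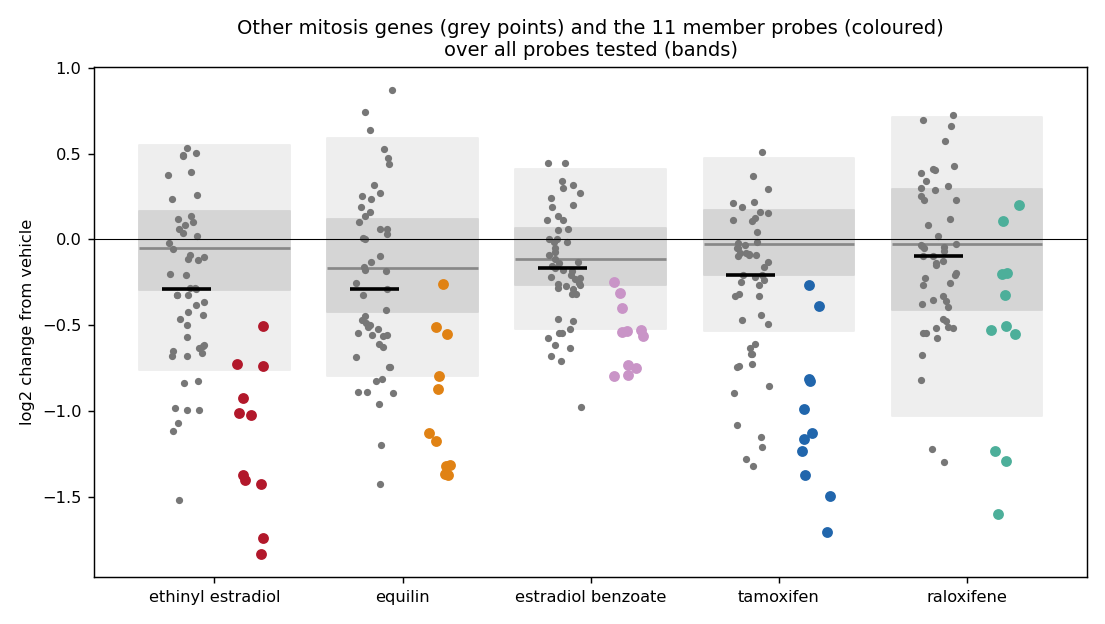
Log2 change from vehicle (vertical axis) of the 51 other mitosis genes tested (grey points, median as a black line) and of the 11 member probes (coloured points) under each compound. Bands span percentiles 25 to 75 and 5 to 95 of all probes tested; under tamoxifen the medians were -0.21 for the other mitosis genes and -1.13 for the members.

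Of the earlier phases, 20 tested S phase genes, which copy the DNA, had a median change of -0.14 under ethinyl estradiol, -0.31 under equilin, -0.08 under estradiol benzoate, 0.03 under tamoxifen and 0.04 under raloxifene. The numbers lower were 13, 16, 11, 9 and 9 of 20 in that order (65%, 80%, 55%, 45% and 45%). Of all probes tested 56.4%, 65.9%, 66.7%, 54.1% and 51.9% were lower. At an unadjusted p under 0.05 (limma) 4, 7, 2, 2 and 4 were lower, and 1 was higher, under raloxifene. The shares of all probes tested that were lower at that threshold were 8.66%, 15.4%, 4.71%, 4.87% and 15.8%. Mcm5, a subunit of the replicative helicase, passed under ethinyl estradiol (-1.27 ± 0.30; adjusted p = 0.0477, limma) and equilin (-1.19 ± 0.30; 0.0346), Mcm10 under equilin (-1.66 ± 0.34; 0.0155) and Chaf1b, a histone chaperone subunit, under raloxifene (-0.92 ± 0.21; 0.0385). None of these 4 calls held with the array set as a block, where the adjusted p (limma) was 0.565 and 0.588 for Mcm5, 0.255 for Mcm10 and 0.0783 for Chaf1b. Without raloxifene array 3 Chaf1b was at -0.66 (adjusted p = 0.171, limma). Under tamoxifen and estradiol benzoate 0 passed in limma. Of 8 tested G1 cyclins, their kinases and E2F factors, 0 passed in any comparison with vehicle in limma. The nearest was Cdk4 under raloxifene, at -0.75 ± 0.19 (adjusted p = 0.0535). At an unadjusted p under 0.05 (limma) 2 were lower under ethinyl estradiol and 1 was higher under tamoxifen. Under raloxifene 2 were lower and 2 higher. Of 12 tested inhibitors of the cell cycle 0 passed in limma. At an unadjusted p under 0.05 (limma) 2 were lower under equilin and 2 under estradiol benzoate. Under raloxifene 2 were lower and 2 higher, under tamoxifen 1 was higher, and under ethinyl estradiol there were 0. For both lists the shares of all probes lower at that threshold are those given above. The shares higher were not computed, so the counts higher in this paragraph are values alone. Cdkn1a, encoding the inhibitor p21, was at -0.89 ± 0.29 under estradiol benzoate (adjusted p = 0.302, limma), -0.68 ± 0.29 under equilin (0.189) and 0.33 ± 0.27 under tamoxifen (0.768). Its raloxifene arrays ran from 3.02 to 4.74. Without raloxifene array 3 it passed under estradiol benzoate (adjusted p = 0.0424, limma) and equilin (0.0185). In that fit 1 and 2 of the 12 inhibitors passed as lower under these compounds, and the shares of all probes were not computed.

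Markers of cell types moved with some of these changes. Of 8 fibroblast markers, 7 were on the array, and their summed intensity was 451 to 537 in vehicle arrays, 318 to 395 under tamoxifen, 315 to 373 under ethinyl estradiol, 329 to 362 under equilin, 365 to 448 under raloxifene and 422 to 454 under estradiol benzoate. The estradiol benzoate range overlapped vehicle, and the ranges of the other 4 compounds lay below it. Bright markers weigh most in such a sum. Taken singly, 7 of the 7 were lower under ethinyl estradiol and under equilin, and 6 under estradiol benzoate. Under tamoxifen and under raloxifene 5 were lower and 2 higher. Of all probes tested 56.4%, 65.9%, 66.7%, 54.1% and 51.9% were lower in that order. The defining marker Pdgfra was dim, with a median intensity of 0.725, while Dcn and Col1a1 had medians of 215 and 44.3. Of 8 mast cell markers, 7 were on the array, and their sum was 14.4 to 18.3 in vehicle arrays, 9.4 to 11.6 under ethinyl estradiol, 10.1 to 12.1 under equilin, 12.8 to 14.5 under estradiol benzoate, 13.6 to 15.5 under tamoxifen and 14.4 to 18.3 under raloxifene. Smooth muscle markers (7 of 8 on the array) summed to 670 to 864 in vehicle arrays, 483 to 644 under tamoxifen, 492 to 652 under estradiol benzoate, 587 to 674 under equilin, 602 to 827 under raloxifene and 816 to 911 under ethinyl estradiol. Endothelial markers (7 of 8 on the array) summed to 228 to 270 in vehicle arrays and to 192 to 213 under raloxifene, wholly below vehicle. They summed to 205 to 246 under ethinyl estradiol, 199 to 239 under equilin, 207 to 264 under estradiol benzoate and 210 to 277 under tamoxifen, which overlapped vehicle. Taken singly, in the order given for fibroblasts, 7, 6, 6, 5 and 5 of the 7 mast cell markers were lower. Of the 7 smooth muscle markers 1, 4, 5, 5 and 2 were lower, and of the 7 endothelial markers 6, 7, 5, 5 and 5. The shares of all probes lower are those given above. The part of these cell types in the mitosis results was not tested. Lymphocyte markers (6 of 10 on the array) summed to 6.35 to 25 in vehicle arrays and 7.33 to 9.56 under tamoxifen, ranges that overlap.

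The genes whose pattern over the 20 arrays was most like the mean of the 10 mitosis genes were Kif20a (r = 0.958), Cpz (0.928), Col1a1 (0.925), Mmp2 (0.905), Penk (0.887), Cthrc1 (0.884), Serpinf1 (0.88) and Mxd3 (0.878). These correlations hold the treatment differences themselves and the shared arrays. After each group's mean was taken away, the closest were Kif20a (r = 0.891), Col1a1 (0.844), Rbx1 (0.841), Ucp1 (0.835) and Syne1 (0.83). Kif20a read -0.12 ± 0.28 in vehicle rats, -1.27 ± 0.40 under tamoxifen, -1.19 ± 0.30 under ethinyl estradiol, -1.01 ± 0.17 under equilin, -0.66 ± 0.14 under estradiol benzoate and -0.66 ± 0.23 under raloxifene (n = 4, 4, 3, 3, 3 and 3).

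Within groups the 10 genes followed each other only in part. Of the 45 pairs, 30 had a correlation of their deviations from group means above 0, with a median of 0.238, and 36 without raloxifene array 3, with a median of 0.285. Top2a followed the mean of the other 9 most closely (r = 0.707, and 0.866 without that array), then Pbk (0.669 and 0.633) and Ccna2 (0.56 and 0.641). Mki67 went from 0.414 to 0.789 and Cks2 from 0.0351 to 0.42 without that array. Nusap1, whose vehicle arrays were the tightest, was at -0.013 and -0.0794. Over all probes tested the median correlation with the mean of the 10 genes was 0.12, and 0.178 without that array. These medians stand beside the correlations with the mean of the other 9, and not beside the medians over pairs. These points share 20 arrays and are given as a description.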

How the data were processed

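RNA from the mesenteric arteries of 20 rats was measured on single-colour CodeLink whole genome arrays, 1 array for each rat. The deposited values are intensity values per probe, with background correction and scaling not given in the sources used here. For their own analysis the authors named GenePix Pro 5.0, Acuity 3.1 and GeneSpring 7.1, per the submitters' design text. Samples were grouped by the agent in their titles. Negative values became 0, 0.103 (0.1 times the median intensity) was added before log2, and each array's median was then subtracted. Of 35129 probes, 40 lacked a value in several arrays of a group and were dropped with the dimmest 30%, which left 24562 to test. limma 3.58.1 in R 4.3.3, with an intensity trend, fitted all 20 arrays in 1 model (14 residual degrees of freedom), with Benjamini-Hochberg adjustment over all probes tested and a threshold of 0.05. The script was tested on simulated data. The number of arrays limits the precision, with 3 or 4 in a group.

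Every member probe was described. From the lists of other cell cycle genes, up to 4 genes with the lowest adjusted p that passed in each direction were named for a comparison with vehicle, and up to 2 with the lowest unadjusted p where none passed; the brightest probe stood for a gene. The members and the lists were chosen with earlier results of these data known. Alternatives were the offset, quantile normalisation or no centring, the filter on dim probes, no trend, array weights, only the compared groups, the array set or the replicate number as a block, 384 regularly spaced unnamed probes left out, and each array left out in turn. Same-numbered arrays of different groups did not deviate together (46 pairs, median correlation 0.0222, range -0.426 to 0.292), so the numbers were not taken as pairs. Promoter windows came from RefSeq (GRCr8).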

Additional observations from a re-analysis of the deposited data

How the results depend on the processing

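The median log2 change of the 11 member probes kept its direction in all 9 comparisons under every setting tried. It moved by more than the spread between arrays as follows. With an offset of 0.5 times the median it was -0.72 for ethinyl estradiol, -0.64 for equilin, -0.74 for tamoxifen and -0.31 for raloxifene against vehicle, and -0.32 for ethinyl estradiol against estradiol benzoate. With 0.02 times the median it was -1.31 for equilin. With the dimmest 50% left out, which leaves fewer members, it was -1.39 for ethinyl estradiol, -0.94 for equilin, -0.89 for raloxifene and -0.81 for ethinyl estradiol against estradiol benzoate. With array weights it was -0.91 for equilin. A block for the array set gave -0.86 for equilin and -0.34 for estradiol benzoate.

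Counts of members called moved too. Those for pairs with ethinyl estradiol or equilin, which chose the genes, are values and support nothing. The share of all probes called was not computed for most of the alternative settings, array weights included. Counts under those settings are therefore values alone, for the members and for the other mitosis genes. Array weights gave 7 for equilin against estradiol benzoate and 5 for tamoxifen against raloxifene, where 0 passed in the reported fit, and raised tamoxifen against vehicle from 6 to 9 and raloxifene against vehicle from 3 to 4, Birc5 entering (adjusted p = 0.0101, limma). The offset of 0.5 times gave 2 for estradiol benzoate, and quantile normalisation, no centring, array weights or leaving out the regularly spaced probes gave 1 for ethinyl estradiol against estradiol benzoate. Raloxifene had 0 with the compared groups alone and 1 with the array set as a block, and tamoxifen had 3 with the dimmest 50% left out. Leaving out 1 array at a time gave 3 to 7 for tamoxifen, 0 to 3 for raloxifene, 0 to 2 for estradiol benzoate and 0 to 1 for ethinyl estradiol against estradiol benzoate. With the replicate block 5 passed for tamoxifen and 3 for raloxifene, Mki67 leaving the first count (adjusted p = 0.0598, limma); the replicate block changed no other member's call. Of the 51 other mitosis genes, leaving out arrays gave 0 to 8 lower for ethinyl estradiol, 0 to 14 for equilin, 1 to 7 for tamoxifen and 0 to 5 for raloxifene, and array weights gave 20 for equilin and 12 for tamoxifen. The causes were not tested.

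Of single probes, none past the threshold changed sign. Array weights turned Ccnb1 to -0.031 for raloxifene against vehicle (-0.063 to 0.36 leaving out arrays) and to -0.031 for equilin against estradiol benzoate (-0.064 to 0.14), Cdk1 probe 1 to -0.43 for raloxifene (-0.27 to 0.40; -0.0044 with the array set as a block), Mki67 to 0.079 for ethinyl estradiol against equilin (-0.13 to 0.044) and to -0.15 for tamoxifen against raloxifene (-0.23 to 0.55), Pbk to 0.0088 for ethinyl estradiol against equilin, and Racgap1 to -0.0025 for ethinyl estradiol against estradiol benzoate (-0.085 to 0.10). Quantile normalisation turned Cks2 to 0.087 for tamoxifen against raloxifene (-0.36 to 0.074), and the array set as a block turned Pbk to 0.023 for estradiol benzoate. The dimness of the probes and the number of arrays limit these values: Nusap1 lay near the filter, 3 or 4 rats stand for a group, and for the estrogens the array set and the treatment share all but vehicle array 1.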
